A study of Mus musculus with 47 samples.

Results

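The genes described here are 6 markers of tanycytes, namely Rax, Gpr50, Dio2, Crym, Lhx2 and Frzb, and they were chosen by symbol from the table of gene counts. Of these 6 genes, 5 had a row among the 14221 genes of the table, and Rax was not analysed here. All 5 passed the filter on low counts, but it removed 0 of the 14221 genes, so that passing it does not set them apart. Hypothalamic RNA of 47 male mice was sequenced, 1 library per mouse, and reads were counted per gene. All mice were of the ob/ob strain, which lacks leptin in every tissue, and their labelled age was 11 weeks in every group. They received either 3 µg of FGF1 or vehicle into the cerebral ventricles, and each vehicle mouse was pair-fed to the intake of FGF1 mice.

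On Day 1 after injection there were 10 FGF1 mice and 4 vehicle mice labelled non-diabetic. On Day 5 there were 9 FGF1 mice, 7 vehicle mice labelled non-diabetic and 7 vehicle mice labelled diabetic. On Day 42 there were 5 FGF1 mice and 5 vehicle mice labelled non-diabetic. The sources used here do not explain these labels of diabetes. By the methods of the study, mice whose blood glucose did not stay high were left out, and fewer vehicle mice are given there for Day 5 than carry the labels. Total counts ran from 7579695 to 30009258 in the Day 5 libraries and from 19416026 to 43934003 in the Day 42 libraries. On Day 5 only FGF1 replicates 8 and 9 (30009258 and 27922117) had more than 12451642 counts, the highest total of a vehicle library of that day. On Day 1 they ran from 27370020 to 47082403, apart from FGF1 replicate 1 with 1243280 counts, in which Frzb was read 3 times and Lhx2 4 times. The authors' sample sheet gives each day a preparation code of its own, so that in levels the day and the preparation cannot be told apart.

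Tanycytes are elongated glial cells that line the floor and the lower walls of the third ventricle, where they take part in the exchange of hormones and nutrients between blood, cerebrospinal fluid and hypothalamic neurons. They are known for their handling of thyroid hormone, which they activate locally, and for their capacity to act as neural progenitors. None of the genes described here is confined to tanycytes in the brain, and in tissue RNA fewer tanycytes and less RNA per tanycyte cannot be told apart.

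Beside these genes, lists of markers were used to describe the tissue. Of 9 markers of arcuate neurons, 8 had a row and none was at 0 in any library, with Npy the most abundant, as was so for 15 of 16 ependymal markers, led by Cfap44. Here and for the other lists the most abundant gene is the one with the highest mean normalized CPM over the 47 libraries, and single libraries can differ. Of 12 pituitary markers 4 had a row, with Chga the most abundant, and growth hormone and prolactin were not analysed here. Among 29 further genes that mark tanycytes or radial glia, 27 had a row, none was at 0 in any library, and Igfbp5 was the most abundant.

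Levels are given as CPM, each count scaled to the total of its library, after normalization for library composition (normalized CPM). Compared per kilobase of exon, Gpr50, Crym and Dio2 had mean levels over the 47 libraries of 4.58 ± 2.18, 4.20 ± 2.73 and 3.64 ± 1.41 normalized CPM per kb (SD), followed by Frzb with 2.07 ± 0.60 and Lhx2 with 1.31 ± 0.54. The level of Gpr50 per kb exceeded that of Frzb in 47 of 47 libraries and that of Lhx2 in 46, whereas it exceeded that of Dio2 in 26. Dio2 was above Lhx2 per kb in 47 of 47 libraries. The order of the means differed between groups. In non-diabetic vehicle of Day 5 Gpr50, Crym and Dio2 had means of 2.31, 6.25 and 3.66 normalized CPM per kb. In vehicle of Day 42 they had 4.28, 1.48 and 4.87, and Frzb had 1.94. A gene was called changed where edgeR's quasi-likelihood test gave a Benjamini-Hochberg adjusted p under 0.05 over all 14221 genes and the absolute log2 fold change (FC) exceeded 0.5.

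**Figure D1:**
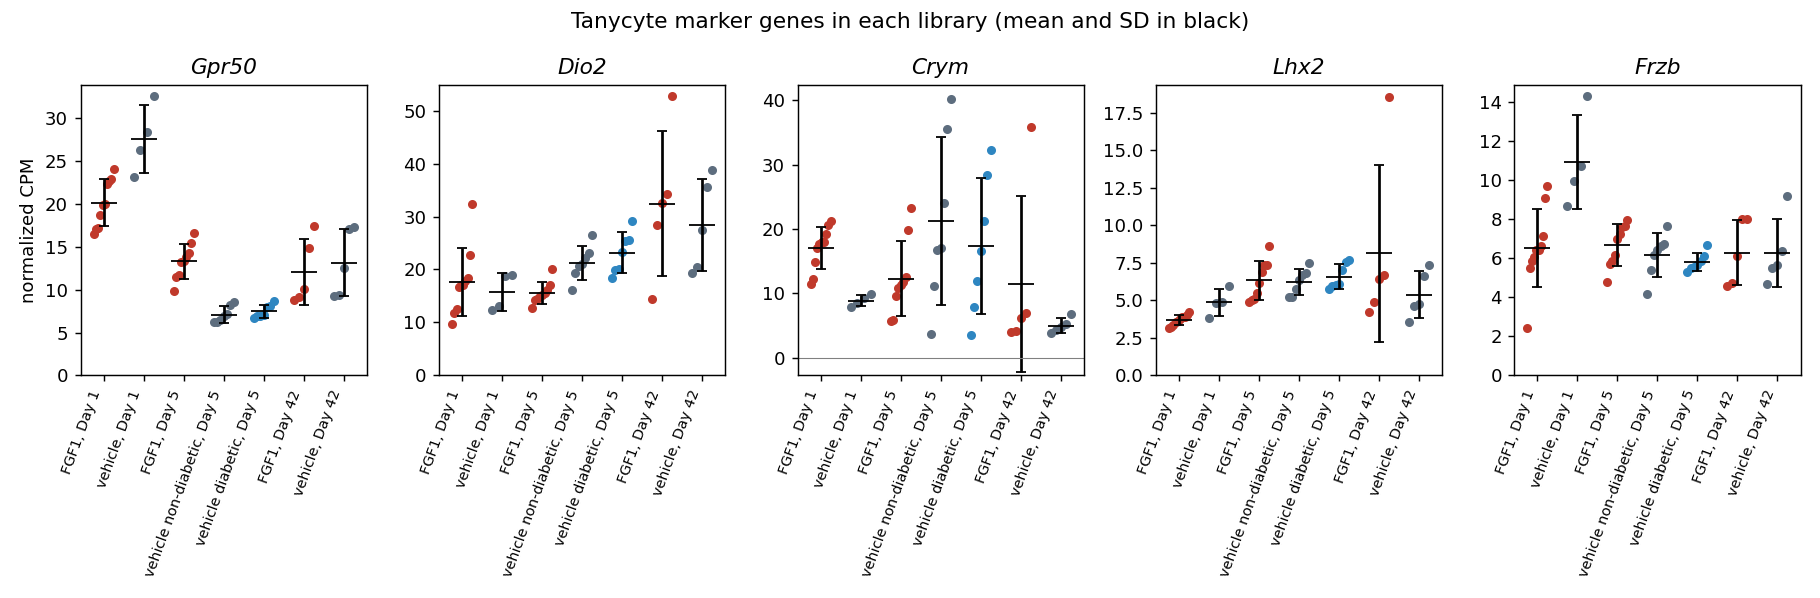
Normalized CPM of the 5 tanycyte marker genes in each of the 47 libraries, by group. Each point is 1 mouse, black bars are the mean ± SD, and the vertical axes differ between genes. Gpr50 of the FGF1 mice of Day 5, from 9.91 to 16.6, lies above both vehicle groups of that day, and FGF1 replicate 5 of Day 42 stands apart in Crym (35.9) and Lhx2 (18.5).

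Gpr50, an orphan G protein-coupled receptor related to the melatonin receptors, had the smallest adjusted p of the 5 genes in a comparison with FGF1, and it did so on Day 5. Its lowest, median and highest levels were 9.91, 13.4 and 16.6 normalized CPM in the FGF1 mice of that day. In the non-diabetic vehicle mice they were 6.19, 6.91 and 8.58, and in the diabetic vehicle mice 6.68, 7.05 and 8.72. Each of the 9 FGF1 mice was therefore above each of the 14 vehicle mice.

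On Day 5 Gpr50 rose with FGF1 by a log2 FC of 0.90 ± 0.15 (SE, n = 9 and 7, edgeR adjusted p = 3.26e-05) against non-diabetic vehicle, which is 1.86-fold. Against diabetic vehicle the log2 FC was 0.83 ± 0.14 (n = 9 and 7, edgeR adjusted p = 6.17e-05), with the same FGF1 mice. An exact two-sided permutation test of the mice of the groups alone gave p = 0.000175 in either comparison, the smallest that 9 against 7 mice can give. Of the 5 genes only Gpr50 was called against non-diabetic vehicle, where 1.54% of all genes were, and only Gpr50 had groups that did not overlap, as 3.93% of all genes did. Against diabetic vehicle Gpr50 and Dio2 were called, where 2.85% of all genes were, and again only Gpr50 had groups that did not overlap, as 6.08% of all genes did.

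On Day 1 the direction was the opposite. The vehicle mice had 28.5, 32.6, 23.2 and 26.3 normalized CPM of Gpr50, and the FGF1 mice had a lowest, median and highest level of 16.5, 19.9 and 24.1. The ranges overlapped, although 9 of the 10 FGF1 mice were below all vehicle mice. The log2 FC was -0.44 ± 0.14 (SE, n = 10 and 4, edgeR adjusted p = 0.0101), which passed the threshold on p, as 45% of all genes did, but not that on the fold change. The exact permutation test gave p = 0.004. Both thresholds were passed in limma on quantile-normalized values (-0.53, adjusted p = 0.00466) and when vehicle replicate 3 was left out of edgeR (-0.52, adjusted p = 0.00648). Leaving out vehicle replicate 2 gave -0.35, and the adjusted p over all alternatives ran from 0.0043 to 0.076.

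On Day 42 the levels of Gpr50 were 14.9, 9.19, 17.5, 10.1 and 8.77 normalized CPM in the FGF1 mice and 17.3, 9.32, 17.1, 9.44 and 12.6 in the vehicle mice. Both groups held low and high mice, and they overlapped. The difference had a log2 FC of -0.11 ± 0.16 (n = 5 and 5, edgeR adjusted p = 1, exact permutation p = 0.651), with a 95% interval from -0.42 to 0.20. In comparisons between days, here and below, the Day 5 effect was taken against non-diabetic vehicle, unless the vehicle groups were merged. The effect of FGF1 on Gpr50 differed between days. It was higher on Day 5 than on Day 1 by 1.34 ± 0.20 on the log2 scale (edgeR adjusted p = 1.27e-06), and on Day 42 it was lower than on Day 5 by a difference of -1.01 ± 0.21 (edgeR adjusted p = 0.00823).

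Thalamic genes were listed as markers of neighbouring tissue. All 7 had a row and none was at 0 in any library, with Calb2 the most abundant by that mean. Their sums on Day 42 were 766, 1585, 440, 1597 and 911 normalized CPM in the FGF1 mice and 1054, 1060, 532, 1793 and 1037 in the vehicle mice. Replicate 3 had the lowest sum and a high Gpr50 in both groups of that day. Within groups r between log2 Gpr50 and the log2 of the sum was -0.57 (rho -0.42, 47 libraries, described without a test), and it was 0.11, -0.43 and -0.76 within Days 1, 5 and 42. Over the marker lists r with Gpr50 ran from that of the thalamic genes to 0.40 for arcuate genes in the 47 libraries, with -0.51 for genes of forebrain excitatory neurons. Within Day 1 it ran from -0.32 for genes of thyroid hormone to 0.78 for Wnt genes. Within Day 5, where Gpr50 was called, it ran from -0.71 for general neuronal genes to 0.61 for endothelial and mural genes, with -0.57 for the excitatory genes. Within Day 42 it ran from -0.87 for oligodendrocyte genes to 0.79 for arcuate genes. None of the 7 thalamic genes was called on any day. Of all genes 19.5% were called on Day 1, 1.54% and 2.85% against the vehicle groups of Day 5 and 0% on Day 42. The part of these tissues and cells in the level of Gpr50 was not tested.

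By median, the order of the groups in Gpr50 was vehicle and FGF1 of Day 1 (27.4 and 19.9 normalized CPM), FGF1 of Day 5 (13.4), vehicle and FGF1 of Day 42 (12.6 and 10.1), and diabetic and non-diabetic vehicle of Day 5 (7.05 and 6.91). Only FGF1 of Day 42 and diabetic vehicle of Day 5 did not overlap among neighbours in this order. The 2 vehicle groups of Day 5, which differ in the label of diabetes, had a difference in Gpr50 of 0.07 ± 0.16 (SE, log2 scale, n = 7 and 7, edgeR adjusted p = 1), with a 95% interval from -0.24 to 0.38.

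**Figure D2:**
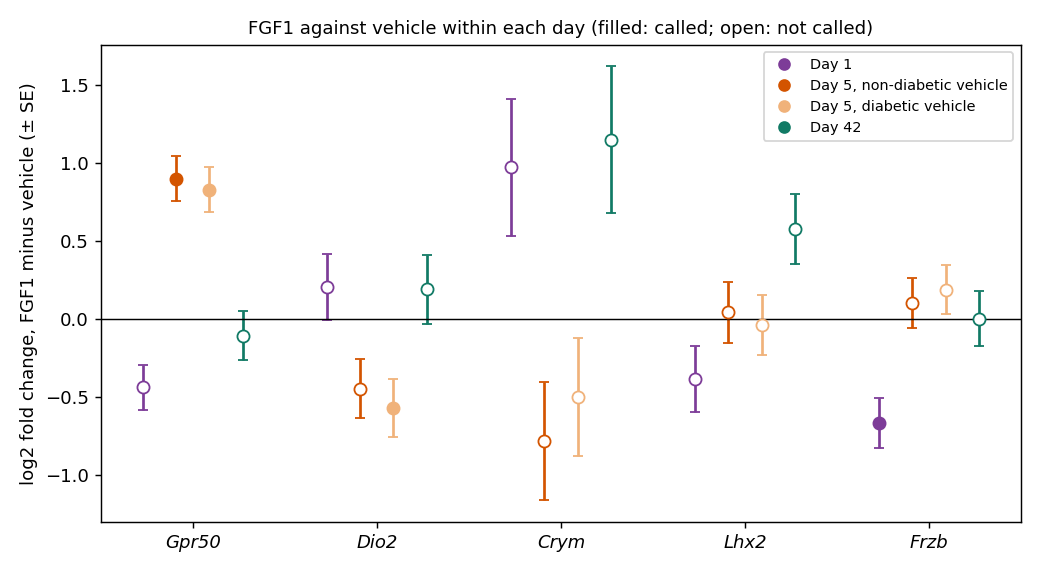
Log2 FC of FGF1 minus vehicle within each day for the 5 genes, from edgeR, with bars of 1 SE. Filled points were called (adjusted p under 0.05 and absolute log2 FC above 0.5) and open points were not. Gpr50 was called against both vehicle groups of Day 5 (0.90 and 0.83), Dio2 against diabetic vehicle (-0.57) and Frzb on Day 1 (-0.67).

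Of the melatonin receptor relatives and reported partners of Gpr50 that were listed, Sik1, Tgfbr1, Nr3c1 and Lepr had a row, and the melatonin receptors themselves were not analysed here. In edgeR 19.5% of all genes were called on Day 1, 1.54% and 2.85% on Day 5 and 0% on Day 42. None of the 4 genes with a row was called on any of these days. Their summed level, with Nr3c1 the most abundant, was 257 to 276 normalized CPM in the FGF1 mice of Day 5 and 249 to 269 in the non-diabetic vehicle mice.

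Dio2, the deiodinase that converts thyroxine to the active hormone triiodothyronine, was lower with FGF1 on Day 5. Its lowest, median and highest levels were 12.7, 15.2 and 20.1 normalized CPM in the FGF1 mice, 16.1, 21.1 and 26.4 in the non-diabetic vehicle mice and 18.5, 23.2 and 29.2 in the diabetic vehicle mice. Each of the 9 FGF1 mice was below the median of either vehicle group, and the ranges overlapped. Against diabetic vehicle Dio2 fell by a log2 FC of -0.57 ± 0.19 (SE, n = 9 and 7, edgeR adjusted p = 0.0444). Against non-diabetic vehicle the log2 FC was -0.45 ± 0.19 (n = 9 and 7, edgeR adjusted p = 0.198), which was not called.

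The exact permutation test gave p = 0.000524 against diabetic and p = 0.00157 against non-diabetic vehicle. The call lies close to the threshold. It was lost without the pair of deepest FGF1 libraries of Day 5 (adjusted p = 0.0934) and with at least 10 counts asked of every library (adjusted p = 0.0526), while merging both vehicle groups gave a call (-0.51, adjusted p = 0.0283). Over the alternatives the log2 FC against diabetic vehicle lay between -0.61 and -0.53, with adjusted p from 5.42e-05 to 0.0934.

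On Day 1 the vehicle mice had 12.3, 18.7, 18.9 and 13.2 normalized CPM of Dio2, within the range of the FGF1 mice (lowest 9.78, median 17.0, highest 32.3). FGF1 and vehicle differed by a log2 FC of 0.20 ± 0.21 (n = 10 and 4, edgeR adjusted p = 0.45, exact permutation p = 0.711). Over the alternatives this log2 FC lay between 0.0037 and 0.30, and between 0.10 and 0.30 in the runs that left out 1 library. On Day 42 the levels were 28.4, 32.5, 14.4, 34.3 and 52.7 in the FGF1 mice and 35.6, 27.5, 19.3, 38.7 and 20.5 in the vehicle mice, with overlap. The log2 FC of Day 42 was 0.19 ± 0.22 (n = 5 and 5, edgeR adjusted p = 1, exact permutation p = 0.73).

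By median, Dio2 was highest in FGF1 and vehicle of Day 42 (32.5 and 27.5 normalized CPM), then in diabetic and non-diabetic vehicle of Day 5 (23.2 and 21.1), and lowest in FGF1 of Day 1, vehicle of Day 1 and FGF1 of Day 5 (17.0, 16.0 and 15.2). All neighbours in this order overlapped. The difference between the FGF1 effects of Day 5 and Day 1 was -0.65 ± 0.29 on the log2 scale (edgeR adjusted p = 0.0838) and was not called, whereas limma voom (-0.68, adjusted p = 0.0347) and edgeR with merged vehicle groups (-0.72, adjusted p = 0.0345) called it. Its adjusted p ran from 0.0345 to 0.215 over the alternatives.

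Over the marker lists the r within groups of log2 Dio2 and the log2 of each sum was described without a test. In the 47 libraries it ran from -0.41 for pituitary genes (rho -0.38) to 0.59 for Wnt genes (rho 0.43). It was 0.49 for general neuronal genes and 0.44 for choroid plexus genes. The pituitary sum was mostly Chga and the choroid plexus sum mostly Enpp2. In FGF1 replicate 1 of Day 5 these made 180 of 199 and 287 of 316 normalized CPM. The r values of these lists, here and below, therefore rest mainly on those genes. Within Day 5, where Dio2 was called against diabetic vehicle only, r ran from -0.35 for endothelial and mural genes to 0.48 for striatal genes. Within Day 1 it lay between -0.70 for genes of thyroid hormone and 0.70 for endothelial and mural genes, and within Day 42 between -0.76 for arcuate and 0.86 for Wnt genes, with 0.83 for general neuronal genes. The part of other tissue or cells in the level of Dio2 was not tested.

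Crym, which encodes mu-crystallin, a protein that binds thyroid hormone in the cytosol, was the most variable of the 5 genes within the Day 5 groups. On Day 1 the vehicle mice had 9.31, 9.85, 7.84 and 8.45 normalized CPM, and the FGF1 mice had a lowest, median and highest level of 11.5, 17.9 and 21.2. Each of the 10 FGF1 mice was above each of the 4 vehicle mice, and 14.4% of all genes had groups without overlap in this comparison.

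The log2 FC of Crym on Day 1 was 0.97 ± 0.44 (SE, n = 10 and 4), with an edgeR adjusted p of 0.0686 that missed the threshold, whereas the exact permutation test gave p = 0.002, the smallest that 10 against 4 mice can give. Fitted with the Day 1 libraries alone, edgeR gave 0.97 and an adjusted p of 9.55e-05. The coefficient of variation of Crym was 10.1% and 19.2% in the vehicle and FGF1 mice of Day 1, but 47.7%, 61.6% and 60.7% in the FGF1, non-diabetic and diabetic vehicle mice of Day 5. Over the alternatives the log2 FC on Day 1 stayed between 0.76 and 1.03, and its largest adjusted p was 0.207.

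On Day 5 the lowest, median and highest levels of Crym were 5.64, 11.3 and 23.3 normalized CPM in the FGF1 mice, 3.62, 17.1 and 40.3 in the non-diabetic vehicle mice and 3.56, 16.6 and 32.2 in the diabetic vehicle mice. The groups overlapped widely. Against non-diabetic vehicle the log2 FC was -0.78 ± 0.38 (n = 9 and 7, edgeR adjusted p = 0.282, exact permutation p = 0.207). Against diabetic vehicle it was -0.50 ± 0.38 (n = 9 and 7, edgeR adjusted p = 0.487, exact permutation p = 0.452). The FGF1 effect of Day 5 was lower than that of Day 1, by a difference of -1.76 ± 0.58 on the log2 scale (edgeR adjusted p = 0.0207), a call that limma on quantile-normalized values did not make (-1.41, adjusted p = 0.0935).

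The FGF1 mice of Day 42 had 4.23, 3.93, 6.92, 6.21 and 35.9 normalized CPM of Crym, and the vehicle mice had 4.32, 4.78, 6.81, 3.80 and 5.30. Replicate 5 of the FGF1 mice was far above every other mouse of that day, and the remaining values overlapped. The log2 FC of 1.15 ± 0.47 (n = 5 and 5, edgeR adjusted p = 0.734, exact permutation p = 0.373) became 0.10 without that mouse.

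By median, Crym followed the order FGF1 of Day 1 (17.9 normalized CPM), non-diabetic vehicle, diabetic vehicle and FGF1 of Day 5 (17.1, 16.6 and 11.3), vehicle of Day 1 (8.88), and FGF1 and vehicle of Day 42 (6.21 and 4.78). All neighbours in this order overlapped, although FGF1 of Day 42 did so with vehicle of Day 1 only through replicate 5.

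Crym is also a gene of striatal neurons, and a list of 7 striatal genes (among them Drd1, Drd2, Adora2a and Pde10a) went with it on Days 5 and 42. All 7 had a row, none was at 0 in any library, and Pde10a was the most abundant. The 3 mice of Day 5 with the highest Crym were non-diabetic vehicle replicates 6 and 5 and diabetic vehicle replicate 5 (40.3, 35.5 and 32.2 normalized CPM), and their summed striatal levels were 472, 467 and 382. The mice with the lowest Crym, diabetic and non-diabetic vehicle replicate 1 (3.56 and 3.62), had 181 and 184.

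In the Day 5 groups the lowest, median and highest summed striatal levels were 175, 193 and 342 normalized CPM with FGF1, 184, 289 and 472 in non-diabetic vehicle and 181, 218 and 382 in diabetic vehicle. On Day 42 the sums were 210, 230, 323, 256 and 546 in the FGF1 mice and 212, 210, 204, 228 and 194 in the vehicle mice, so that the mouse with the highest Crym also had the highest sum. Within groups, log2 Crym followed the log2 of that sum with a Pearson r of 0.87 and a Spearman rho of 0.71 over 47 libraries, described without a test. The r was 0.82 without the pair of libraries farthest in Crym, 0.87 within Day 5, 0.91 within Day 42 and 0.08 within Day 1. Other lists went with Crym as well. The other tanycyte genes had an r of 0.44 over 47 libraries (rho 0.56) and of 0.74, 0.71 and 0.65 within Days 1, 5 and 42, and the transcription factors of the forebrain had 0.63 (rho 0.57) and 0.38, 0.59 and 0.98. Within Days 1, 5 and 42 r was 0.05, -0.51 and 0.88 for choroid plexus genes and -0.03, -0.10 and 0.88 for genes of forebrain excitatory neurons. Without the pair farthest in Crym these lists had 0.002 and 0.12 over the other libraries. Over the marker lists r with Crym ran from -0.34 for thalamic genes to 0.87 for striatal genes in the 47 libraries. Within Day 5 it was -0.59 for endothelial and mural, -0.57 for oligodendrocyte and -0.52 for thalamic genes. Within Day 42 it was 0.86 for genes of thyroid hormone.

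On Day 1 the sum was not higher in the FGF1 mice, where Crym was. It was 182, 176, 165 and 177 normalized CPM in the vehicle mice and had a lowest, median and highest level of 142, 154 and 166 in the FGF1 mice. There Ppp1r1b, which is also a tanycyte gene, fell (log2 FC -2.41 ± 0.39, edgeR adjusted p = 1.8e-06) and Drd1 rose (1.07 ± 0.34, adjusted p = 0.00928). The other 5 striatal genes were not called. These counts and those below stand beside 19.5% of all genes called on Day 1, 1.54% and 2.85% against the vehicle groups of Day 5 and 0% on Day 42. On Days 5 and 42 none of the 7 was called in edgeR, with median log2 FCs of -0.72 and -0.31 against the vehicle groups of Day 5 and 0.95 on Day 42. The part of striatal or other tissue in the levels of Crym was not tested.

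**Figure D3:**
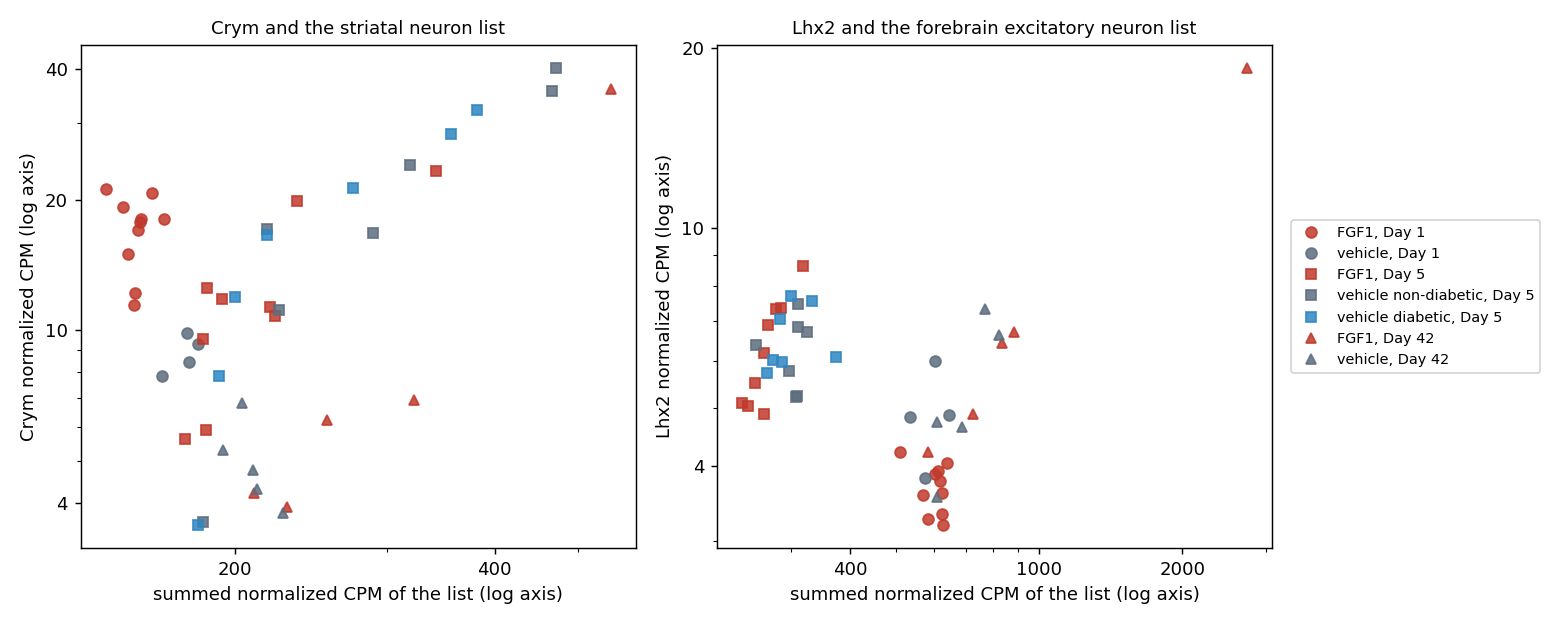
Normalized CPM of Crym against the summed normalized CPM of 7 striatal genes (left), and of Lhx2 against that of 6 genes of forebrain excitatory neurons (right), in 47 libraries on log axes. Each symbol is 1 mouse, coloured by treatment and shaped by day. Mice of Day 5 with more Crym had a higher striatal sum, and FGF1 replicate 5 of Day 42 is the point at 2736 and 18.5 on the right.

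Other genes of thyroid hormone handling and response were listed beside Dio2 and Crym. Of 25 listed genes 22 had a row, and on Day 1 edgeR called 1 higher and 4 lower and did not call 17. There 19.5% of all genes were called (1631 higher and 1145 lower). This split was 1416 and 1373 with DESeq2 size factors in edgeR, and 1174 and 1117 in limma on quantile-normalized values. The list had a median log2 FC of -0.12, and all genes had one of 0.01. Hr, a corepressor that is itself a target of thyroid hormone, fell most (log2 FC -2.0 ± 0.20, adjusted p = 2.25e-11), with medians of 104 normalized CPM in the vehicle mice and 25.8 in the FGF1 mice. Thrsp, another target gene, fell by a log2 FC of -1.29 ± 0.13 (adjusted p = 2.83e-11).

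The transporter Slc16a10 fell on Day 1 as well (log2 FC -0.58 ± 0.16, edgeR adjusted p = 0.00323). On Day 5 none of the 22 genes was called by edgeR against either vehicle group, with median log2 FCs of 0.01 and 0.02. There 1.54% and 2.85% of all genes were called. None of the 22 was called on Day 42, where 0% of all genes were. The deiodinases Dio1 and Dio3 and the carrier Ttr were not analysed here.

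Lhx2, a LIM homeodomain transcription factor needed for tanycyte identity, had the lowest mean level per kb of the 5 genes over the 47 libraries. Per kb it was nevertheless above Frzb in 8 and above Crym in 5 of them. On Day 1 its levels were 5.99, 4.83, 3.82 and 4.87 normalized CPM in the vehicle mice, and the FGF1 mice had a lowest, median and highest level of 3.19, 3.69 and 4.22. The ranges overlapped through vehicle replicate 3. FGF1 gave a log2 FC of -0.39 ± 0.21 (SE, n = 10 and 4, edgeR adjusted p = 0.13), which was not called, and the exact permutation test gave p = 0.00999. Of the 5 genes only Frzb was called on Day 1, where 19.5% of all genes were.

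On Day 5 the medians of Lhx2 were 6.19 normalized CPM with FGF1 (4.88 to 8.64), 6.38 in non-diabetic vehicle (5.23 to 7.47) and 6.10 in diabetic vehicle (5.73 to 7.69). The ranges overlapped throughout. Compared with non-diabetic vehicle the log2 FC was 0.04 ± 0.20 (n = 9 and 7, edgeR adjusted p = 0.974), with a 95% interval from -0.34 to 0.43. Against diabetic vehicle it was -0.04 ± 0.19 (n = 9 and 7, edgeR adjusted p = 0.949), with an interval from -0.42 to 0.34.

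On Day 42 the FGF1 mice had 4.23, 6.42, 4.88, 6.71 and 18.5 normalized CPM of Lhx2, and the vehicle mice had 4.74, 4.66, 3.56, 6.62 and 7.33. Replicate 5 was again far above the others, and the other 4 FGF1 mice lay within the vehicle range. The log2 FC of 0.57 ± 0.22 (n = 5 and 5, edgeR adjusted p = 0.662, exact permutation p = 0.405) became 0.04 without replicate 5. The FGF1 effect of Day 42 was higher than that of Day 1 by 0.96 ± 0.31 (edgeR adjusted p = 0.0167), and this call rested on the same mouse, since the difference was 0.43 without it (adjusted p = 0.154). It was not called by limma voom either (0.54, adjusted p = 0.205), and its adjusted p was as low as 0.00367 in another alternative.

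By median, the order in Lhx2 was FGF1 of Day 42 (6.42 normalized CPM), the Day 5 groups (6.38 in non-diabetic vehicle, 6.19 with FGF1, 6.10 in diabetic vehicle), vehicle of Day 1 (4.85), vehicle of Day 42 (4.74) and FGF1 of Day 1 (3.69). All neighbours overlapped.

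The Day 42 mouse with the highest Lhx2 also had high levels of genes of forebrain excitatory neurons. Of 10 such markers, 6 had a row (among them Slc17a7, Tbr1 and Camk2a), none was at 0 in any library, and Camk2a was the most abundant. Their sums were 583, 835, 724, 885 and 2736 normalized CPM in the FGF1 mice of Day 42 and 610, 688, 609, 823 and 770 in the vehicle mice. The sum of 5 of 9 choroid plexus markers, mostly Enpp2, was 1980 in replicate 5 (Enpp2 alone 1776) and 251 to 419 in the other mice of that day. On Day 5 the mean of this sum was 296 with FGF1 and 222 and 207 in non-diabetic and diabetic vehicle. The median log2 FCs of these 5 markers there were -0.0030 and -0.037, so that the sum does not stand for the whole list. None of the excitatory or choroid plexus genes was called on Day 42, where 0% of all genes were.

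Within groups, log2 Lhx2 and the log2 of the excitatory sum had an r of 0.82 and a rho of 0.60 over 47 libraries, described without a test. The r was 0.56 without the pair of libraries farthest in Lhx2, both of them FGF1 mice of Day 42, and -0.09 within Day 1, 0.49 within Day 5 and 0.96 within Day 42. Over the marker lists r with Lhx2 ran from -0.24 for arcuate genes to this 0.82, with 0.61 for choroid plexus genes, which was 0.15 without that pair. Within Day 1 it was highest for microglial genes (0.51), and within Day 5 lowest for endothelial and mural genes (-0.59). The part of other forebrain tissue in the level of Lhx2 was not tested.

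Of 31 further transcription factors and regulators of the developing forebrain, 28 had a row. On Day 1 edgeR called 5 higher and 2 lower and did not call 21, beside 19.5% called among all genes, and the median log2 FC was -0.07. Sox9, a factor of glial progenitors, rose by 1.10 ± 0.11 (adjusted p = 1.11e-11) and Vax1 by 0.68 ± 0.25 (adjusted p = 0.0243), and Hes5 and Pax6 fell (-1.03 ± 0.32, adjusted p = 0.0081, and -0.93 ± 0.17, adjusted p = 1.06e-05). On Day 5 1.54% and 2.85% of all genes were called against non-diabetic and diabetic vehicle. Of this list only Nkx2-2 was called there, with log2 FCs of 0.62 ± 0.16 and 0.55 ± 0.16 (edgeR adjusted p = 0.0105 and 0.0169). None was called on Day 42, where 0% of all genes were.

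Frzb, a secreted antagonist of Wnt signalling, was lower with FGF1 on Day 1. The vehicle mice had 9.92, 14.3, 10.7 and 8.67 normalized CPM, and the FGF1 mice had a lowest, median and highest level of 2.44, 6.40 and 9.67. Of the 10 FGF1 mice, 8 were below all vehicle mice, and the lowest value is that of the shallow library. Frzb fell by a log2 FC of -0.67 ± 0.16 (SE, n = 10 and 4, edgeR adjusted p = 0.000614), which leaves 0.63-fold of the vehicle level, and the exact permutation test gave p = 0.00799. Over the alternatives the log2 FC lay between -0.82 and -0.51, with adjusted p up to 0.0167.

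On Day 5 the medians of Frzb were 6.97 normalized CPM with FGF1 (4.76 to 7.95), 6.44 in non-diabetic vehicle (4.17 to 7.65) and 5.66 in diabetic vehicle (5.31 to 6.65), with overlap. The log2 FCs were 0.10 ± 0.16 and 0.19 ± 0.16 (n = 9 and 7 in each, edgeR adjusted p = 0.851 and 0.556, exact permutation p = 0.405 and 0.0909). On Day 42 the levels were 6.09, 4.70, 8.0, 4.59 and 8.0 in the FGF1 mice and 9.16, 4.66, 5.66, 5.47 and 6.38 in the vehicle mice, which overlapped. The log2 FC there had a 95% interval from -0.35 to 0.35 (edgeR adjusted p = 1).

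The effect of FGF1 on Frzb was higher on Day 5 than on Day 1 by 0.77 ± 0.23 on the log2 scale (edgeR adjusted p = 0.00867), and higher on Day 42 than on Day 1 by 0.67 ± 0.24 (adjusted p = 0.0348). Neither was called when the vehicle mouse of Day 1 with 14.3 normalized CPM was left out (0.62, adjusted p = 0.0523, and 0.52, adjusted p = 0.132). The Day 42 difference was also lost in limma voom (0.56, adjusted p = 0.1) and when FGF1 replicate 3 or 5 or vehicle replicate 2, 3 or 4 of Day 42 was left out (0.56, 0.58, 0.58, 0.63 and 0.62). By median, Frzb was highest in vehicle of Day 1 (10.3), and this group alone did not overlap with the next, FGF1 of Day 5. The further order was FGF1 and non-diabetic vehicle of Day 5 (6.97 and 6.44), FGF1 of Day 1 (6.40), FGF1 of Day 42 (6.09), and vehicle of Day 42 and diabetic vehicle of Day 5 (both 5.66).

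Other genes of the Wnt pathway were listed beside Frzb. Of 57 listed genes 52 had a row, and on Day 1 edgeR called 7 higher and 5 lower and did not call 40, beside 19.5% called among all genes, with a median log2 FC of -0.12. Sfrp5, another secreted antagonist, fell most (log2 FC -2.39 ± 0.28, adjusted p = 1.01e-09), with medians of 9.90 normalized CPM in vehicle and 1.32 in FGF1 mice. The receptor Fzd1, the ligand Wnt7b and the coreceptor Lrp5 rose, by 1.62 ± 0.11, 1.58 ± 0.12 and 1.01 ± 0.16 (adjusted p = 1.51e-16, 8.65e-15 and 1.04e-06). On Days 5 and 42 none of the 52 was called in edgeR, beside 1.54% and 2.85% of all genes on Day 5 and 0% on Day 42.

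Between days, the FGF1 effects of Day 5 and Day 1 differed for Gpr50, Crym and Frzb, that is 3 of 5 genes, where 15.8% of all genes were called. Those of Day 42 and Day 5 differed for Gpr50, 1 of 5, where 0.717% of all genes were called, and those of Day 42 and Day 1 for Lhx2 and Frzb, 2 of 5, where 16.4% were. These comparisons share groups and are not independent of each other. In the comparison of FGF1 and vehicle on Day 42, edgeR called 0 of the 5 genes and 0 of all genes (0%), as did DESeq2 and limma, and 776 genes had an unadjusted p under 0.05 in edgeR, 781 in DESeq2, 469 in limma on quantile-normalized values and 416 in limma voom. In edgeR there were 145 such genes with the libraries of Day 42 alone, 318 without FGF1 replicate 5 and 1252 without FGF1 replicate 3, and 31 genes were called without FGF1 replicate 1 and 1 without FGF1 replicate 2. Groups without overlap were found for none of the 5 and for 0.267% of all genes. Between diabetic and non-diabetic vehicle of Day 5 the 3 tools called 0 genes as well (0%), and 193 had an unadjusted p under 0.05 in edgeR, 164 in DESeq2, 375 in limma on quantile-normalized values, 1014 in limma voom and 879 in edgeR with the libraries of Day 5 alone.

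Of the 27 other tanycyte and radial glia genes measured, edgeR called 7 higher and 4 lower on Day 1 and did not call 16, beside 19.5% called among all genes, with a median log2 FC of -0.12. The intermediate filament genes Nes and Vim rose by 3.65 ± 0.15 and 3.31 ± 0.18 (adjusted p = 4.5e-24 and 5.06e-20), Adm rose by 2.23 ± 0.32 (adjusted p = 1.61e-07), and Ppp1r1b fell as given above. Nes and Vim are also made by other reactive glia. The summed level of the 27 genes had a lowest, median and highest value of 1901, 2255 and 2821 normalized CPM with FGF1, and was 1342 to 1668 in the vehicle mice.

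On Day 5 Vim, Fabp7 and Cd24a rose against non-diabetic vehicle (0.87 ± 0.13, 0.58 ± 0.12 and 0.51 ± 0.12, edgeR adjusted p = 1.28e-05, 0.00113 and 0.0045) and against diabetic vehicle, and the other 24 were not called. In these comparisons 1.54% and 2.85% of all genes were called. The summed level was 1296 to 1453 normalized CPM with FGF1, 1196 to 1358 in non-diabetic vehicle and 1196 to 1280 in diabetic vehicle. None of the 27 was called on Day 42, where 0% of all genes were.

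Ependymal cells border the tanycytes. Of 15 measured markers edgeR called 5 lower and none higher on Day 1, beside 19.5% called among all genes, led by Ccdc153 (log2 FC -2.33 ± 0.21, adjusted p = 1.06e-12) and Dynlrb2 (-1.62 ± 0.18, adjusted p = 7.1e-10), and the median log2 FC was -0.32. Their sums were 105 to 160 normalized CPM with FGF1 (median 137) and 150 to 208 in vehicle. On Day 5 the sums were 192 to 256 with FGF1 (median 204), 150 to 207 in non-diabetic vehicle (median 179) and 131 to 190 in diabetic vehicle (median 167). None was called against non-diabetic vehicle and 3 were called higher against diabetic vehicle (2.85% of all genes were called), with Dynlrb2 at 0.58 ± 0.19 (adjusted p = 0.0478). The ependymal part in the levels of Gpr50 and Frzb was not tested, and r within groups between log2 Gpr50 and the log2 of the ependymal sum was 0.29 over 47 libraries (rho 0.24) and 0.10, -0.01 and 0.53 within Days 1, 5 and 42. For Frzb it was 0.12 (rho 0.11), and -0.04, -0.23 and 0.58 within these days. Over the marker lists r with Frzb ran from -0.40 for thalamic genes (rho -0.52, and -0.57, -0.45 and -0.49 within these days) to 0.59 for the other tanycyte genes (rho 0.41, 0.47 without the shallowest library, and 0.75, 0.27 and 0.36), and it was 0.43 for endothelial and mural genes (rho 0.24, 0.24 without the shallowest library, and 0.62, 0.20 and -0.08). The part of these in the level of Frzb was not tested.

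Of 15 astrocyte markers, all measured, edgeR called Gfap higher and 5 lower on Day 1, beside 19.5% called among all genes. On Day 5 it called Gfap and Aqp4 higher against each vehicle group, beside 1.54% and 2.85% of all genes. Gfap rose by 2.81 ± 0.19 on Day 1 and by 1.29 ± 0.14 against non-diabetic vehicle on Day 5 (adjusted p = 1.08e-16 and 1.16e-08). The summed astrocyte level, with Slc1a2 the most abundant, was 8405 to 9924 normalized CPM with FGF1 and 8407 to 9504 with vehicle on Day 1. On Day 5 it was 8385 to 8780 with FGF1 and 7554 to 7915 in non-diabetic vehicle.

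Cells of the oligodendrocyte lineage and microglia were described in the same way. Of 10 oligodendrocyte genes, all measured, edgeR called 6 lower and 1 higher on Day 1 and 4 higher against each vehicle group of Day 5, where 19.5%, 1.54% and 2.85% of all genes were called. Gpr17, a gene of immature oligodendrocytes, fell on Day 1 (log2 FC -1.07 ± 0.23, adjusted p = 0.00019) and rose on Day 5 (1.80 ± 0.22 and 1.85 ± 0.22, adjusted p = 7.64e-08 and 2.82e-08). Of 8 microglial genes, all measured, 6 were called higher and 1 lower on Day 1, none against non-diabetic vehicle of Day 5 and 6 higher against diabetic vehicle, beside the same shares of all genes. The part of these cells in the results for Gpr50 and Dio2 was not tested.

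None of 12 general neuronal genes was called on any day. Their median log2 FCs were -0.16, -0.12, -0.10 and 0.03 on Day 1, against the vehicle groups of Day 5 and on Day 42. Their sums on Day 1 were lower with FGF1, at 5226 to 6520 normalized CPM, than in vehicle, at 6647 to 8142. On Day 5 they were 5533 to 6052 with FGF1, 5938 to 6110 in non-diabetic vehicle and 5726 to 6162 in diabetic vehicle. Among the arcuate genes Pomc was called higher and Npy lower on Day 1 (1.71 ± 0.47 and -0.61 ± 0.23, edgeR adjusted p = 0.00293 and 0.0281), and none was called on Day 5. Of 10 endothelial and mural genes Dcn and Flt1 were called higher on Day 1 and Plvap lower against diabetic vehicle of Day 5. Of the 5 measured choroid plexus genes 3 were called lower on Day 1, led by Kcnj13 (-3.51 ± 0.50, adjusted p = 1.4e-07), and Ttr, the defining gene, was not analysed here. No excitatory forebrain gene was called on Day 1 or 5. These counts too stand beside 19.5% of all genes called on Day 1, 1.54% and 2.85% on Day 5 and 0% on Day 42.

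Within groups the 5 genes did not vary as a unit. Over 47 libraries, after removal of group means, the highest of the 10 pairwise r values were 0.48 for Gpr50 and Frzb (rho 0.50) and 0.47 for Crym and Lhx2 (rho 0.36), and the lowest was -0.45 for Gpr50 and Lhx2 (rho -0.30). These are descriptions without a test, and the genes of a pair were read in the same libraries and so share the depth of each. For Gpr50 and Frzb r was 0.52, 0.51 and 0.55 within Days 1, 5 and 42 and 0.40 without the pair of libraries farthest in Gpr50. For Crym and Lhx2 it was 0.25 without the pair farthest in Crym. For Gpr50 and Lhx2 it was 0.42 within Day 1, -0.44 within Day 5 and -0.62 within Day 42.

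The genes most like each of them within groups were found among all genes with a mean of at least 1 normalized CPM. Closest to Gpr50 were Pam, Esyt3 and Nr5a2 (r = 0.75, 0.72 and 0.72), closest to Dio2 were Kcnab1, Ufm1 and Coch (0.79, 0.74 and 0.74), and closest to Crym were Ankrd63, Phactr1 and Akap5 (0.94, 0.91 and 0.88). Lhx2 was closest to Fam81a, Mlip and Mef2c (0.82, 0.81 and 0.80), and Frzb to Ppic, Nqo1 and Cdkn1c (0.75, 0.75 and 0.72). Without the shallowest library the values for Frzb were 0.60, 0.58 and 0.62, and those for the other genes stayed between 0.71 and 0.94. Without the pair of libraries farthest in Lhx2 its values were 0.57, 0.60 and 0.52. Within single days these r values differed. With Crym, Ankrd63, Phactr1 and Akap5 had 0.81, -0.09 and -0.33 within Day 1 and 0.92 to 0.96 within Days 5 and 42, and for Dio2 and Ufm1 r was 0.87, -0.14 and 0.86 within Days 1, 5 and 42.

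The 5 genes lie on 4 chromosomes of GRCm38 in the GENCODE M21 annotation. Gpr50 is at chrX:71663667-71669257 on the plus strand, Dio2 at chr12:90724552-90738438 and Crym at chr7:120186380-120202111 on the minus strand, Lhx2 at chr2:38339281-38369733 on the plus strand and Frzb at chr2:80411970-80447625 on the minus strand. Dio2 shares 100 exon bases with Gm26512 on the opposite strand, and although the name of the library kit refers to strand, whether counting used it is not given in the sources used here, so that reads of these bases cannot be assigned to either gene. Lhx2 overlaps Gm27197 and Gm13584 on the opposite strand, with 0 exon bases shared.

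Promoter entries from RefSeq (GRCm38.p6) were found for 4 of the 5 genes, Gpr50, Dio2, Lhx2 (at its pair of starts) and Frzb. In the 250 bases before each start, 4 motifs were searched on both strands, namely TAATTA (a homeodomain core), AGGTCA (a nuclear receptor half-site), TGACGTCA (a cAMP response element) and TTCNNNGAA (a STAT site). Of 32851 promoter windows of that length they were in 4.84%, 14%, 1.55% and 7.02%. The window of Dio2 held TGACGTCA once, beginning 95 bases before the start, that of Frzb held TTCNNNGAA once, beginning 87 bases before it, and those of Gpr50 and Lhx2 held none of these letters. The window of Frzb, at chr2:80447397-80447646, lies for the most part within the Frzb gene of GENCODE, whose start is farther upstream than that of RefSeq, and the match is inside that gene. The window of the second Lhx2 start lies within the Lhx2 gene. A match describes the letters of the window only.

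The windows of Gpr50 and Dio2 are shown because these genes were called on Day 5, in opposite directions. Gpr50 was called against both vehicle groups, and Dio2 only against diabetic vehicle, a call lost in some alternatives. They lie at chrX:71663417-71663666 on the plus strand and at chr12:90739039-90739288 on the minus strand, and the capitals mark TGACGTCA. The window of Dio2 lies upstream of the Dio2 gene of GENCODE and within an intron of Gm26512.
Gpr50: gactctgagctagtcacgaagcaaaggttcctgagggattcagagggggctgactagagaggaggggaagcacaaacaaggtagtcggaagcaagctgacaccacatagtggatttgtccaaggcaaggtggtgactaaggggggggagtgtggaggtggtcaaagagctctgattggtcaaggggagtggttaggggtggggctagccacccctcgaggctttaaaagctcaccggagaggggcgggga
Dio2: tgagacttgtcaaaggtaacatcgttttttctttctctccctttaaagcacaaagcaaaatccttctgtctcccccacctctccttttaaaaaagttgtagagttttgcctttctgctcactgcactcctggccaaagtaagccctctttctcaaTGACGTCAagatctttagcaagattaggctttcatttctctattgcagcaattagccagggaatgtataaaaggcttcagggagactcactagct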

How the data were processed

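Hypothalamic RNA of 47 mice in 7 groups was sequenced, and the authors deposited counts per gene, aligned with STAR to a mouse build they name Grch38 (taken here as GRCm38). These counts were used as deposited. Groups came from the labels. The members and marker lists were chosen with earlier results of these data known. Normalization used TMM factors, and edgeR 4.0.16 fitted 7 group means with quasi-likelihood tests in R 4.3.3 (filterByExpr, Benjamini-Hochberg over 14221 genes). Standard errors were derived from F. DESeq2 1.42.0 and limma 3.58.1 were alternatives. Exact two-sided permutation tests (scipy 1.17.1) used log2(normalized CPM + 0.5) of the mice of the groups compared, in 25 tests with unadjusted p (an adjustment over these genes, planned at first, is not given, since they were chosen with results known). The fit was tested on simulated data. Named were the members, per list up to 4 called genes with the largest change on Day 1 and on Day 5, and per member the 3 genes most alike. The most alike libraries of a group differed by more than sampling noise (chi-square per degree of freedom 1.66). Some genes of the marker lists are not reported here.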

Additional observations from a re-analysis of the deposited data

Results flagged for a closer look

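Of 35 sets of values (5 genes in 7 groups), 2 had a mouse far from the rest of its group, and chance alone flags about 1 in 20 sets. Both were FGF1 replicate 5 of Day 42, with Crym at 35.9 normalized CPM where the next mouse had 6.92, and Lhx2 at 18.5 where the next had 6.71. The library held 19454764 counts, and the genes of forebrain excitatory neurons, of the striatum and of the choroid plexus were highest in it among the Day 42 libraries (summed levels of 2736, 546 and 1980 normalized CPM). Their part in the result was not tested.

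The effect of FGF1 differed between days, by edgeR's test of the difference, in 6 results. The 5 genes were compared for Day 5 with Day 1, Day 42 with Day 5 and Day 42 with Day 1. In this order 15.8%, 0.717% and 16.4% of all genes were called. For Gpr50 the differences on the log2 scale were 1.34 between Day 5 and Day 1 and -1.01 between Day 42 and Day 5. For Frzb they were 0.77 between Day 5 and Day 1 and 0.67 between Day 42 and Day 1. Crym had -1.76 between Day 5 and Day 1, and Lhx2 0.96 between Day 42 and Day 1. Several of these calls were lost in an alternative. The Lhx2 difference was 0.43 without FGF1 replicate 5 of Day 42 (edgeR adjusted p = 0.154) and was not called by limma voom (adjusted p = 0.205). Both Frzb differences were lost without vehicle replicate 2 of Day 1 (edgeR adjusted p = 0.0523 for Day 5 and 0.132 for Day 42), and that of Day 42 also in limma voom (adjusted p = 0.1) and without any 1 of 5 libraries of Day 42. The Crym difference was not called by limma on quantile-normalized values (adjusted p = 0.0935). The authors' preparation code is the same for all libraries of a day, so that day and preparation cannot be told apart, although each effect is taken within a day.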

How the results depend on the processing

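Of 40 member fold changes under up to 21 alternatives each, 23 kept direction and side of the threshold in all that were run, among them Gpr50 on Day 5 (0.86 to 0.96 and 0.82 to 0.89 against non-diabetic and diabetic vehicle) and Frzb on Day 1. Another 9 had a call that moved, and 8 changed sign in an alternative, all of them not called. Lhx2 and Frzb have no value with at least 10 counts in every library, since the shallow Day 1 library held fewer. Another pseudocount (0.1) moved no permutation p across 0.05. No paired analysis was possible because the labels give no numbers that pair mice. Except where fewer genes or libraries entered, the cause was not tested.

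With at least 10 counts in every library (10973 genes), 1582 genes were called on Day 1, 140 and 219 against non-diabetic and diabetic vehicle of Day 5, 1402 for Day 5 minus Day 1 and 1525 for Day 42 minus Day 1, and Dio2 against diabetic vehicle was -0.55. Without a threshold on the fold change these counts were 6396, 661, 1310, 3784 and 3623. Against non-diabetic vehicle 370 were called with that day's libraries alone, 408 in limma on quantile-normalized values, 438 in limma voom and 372 with merged vehicle groups, and against diabetic vehicle 640 in limma on quantile-normalized values. Without the pair of deepest FGF1 libraries of Day 5, Day 42 minus Day 5 had 65, Dio2 against diabetic vehicle was -0.57 and Lhx2 against non-diabetic vehicle -0.093.

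DESeq2 size factors in edgeR and the DESeq2 Wald test each gave Frzb on Day 42 as 0.020, and Dio2 for Day 42 minus Day 1 as 0.040 and 0.064. With the libraries of 1 day alone, Crym on Day 1 was 0.97 and Frzb on Day 42 0.011. In limma on quantile-normalized values, Gpr50 on Day 1 was -0.53, Lhx2 against non-diabetic vehicle -0.045, Frzb on Day 42 0.016, Crym for Day 5 minus Day 1 -1.41, and Dio2 and Crym for Day 42 minus Day 1 0.13 and -0.14. In limma voom, Dio2 on Day 42 was -0.059, Dio2 for Day 5 minus Day 1 -0.68, and Crym, Lhx2 and Frzb for Day 42 minus Day 1 -0.84, 0.54 and 0.56. Merged vehicle groups gave Dio2 on Day 5 as -0.51, Lhx2 as -0.00030 and Dio2 for Day 5 minus Day 1 as -0.72.

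Single libraries were left out in turn only for the 10 of Day 42 and, on Day 1, the 4 vehicle libraries and FGF1 replicate 1, and none of Day 5 was. In these runs Gpr50 ran from -0.52 to -0.35 on Day 1 and from -0.28 to 0.0085 on Day 42, Dio2 from -0.053 to 0.38 and Frzb from -0.11 to 0.18 on Day 42. For Day 5 minus Day 1 Frzb ran from 0.62 to 0.87. For Day 42 minus Day 5 Lhx2 ran from -0.0021 to 0.70 and Frzb from -0.21 to 0.075. For Day 42 minus Day 1 Dio2 ran from -0.26 to 0.18, Crym from -0.87 to 0.40, Lhx2 from 0.43 to 1.13 and Frzb from 0.52 to 0.85. The genes called on Day 42 ran from 0 to 31, with 31 without FGF1 replicate 1 and 1 without FGF1 replicate 2, and for Day 42 minus Day 5 from 56, without FGF1 replicate 5 of Day 42, to 149.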
